A study of Mus musculus with 12 samples.

Results

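The glutathione transferases and glucuronosyltransferases of mouse liver were followed here in interleukin-18 knockout and wild type animals at 6 and 12 weeks of age. A probe belonged to the set if the gene name in the scanner files began with Gsta, Gstm, Gstp, Gstt, Gstk, Gsto, Gstz, Mgst, Ugt1, Ugt2 or Ugt3 and went on with a digit or a letter. This took 55 of the 55681 probes outside the controls, for 38 of the 36095 gene names in the files. They were 24 glutathione transferase genes on 37 probes and 14 Ugt genes on 18 probes. The Ugt genes are glucuronosyltransferases but for the Ugt3 family, with 2 genes on 3 probes. The rule reads names and no measured value. Gstp3 carries another name in the files and so lies outside the rule. Of the members, 53 probes and 36 genes passed the filter on dim signals and were tested. The 2 genes left out were Gstt4, well above background on 1 of 12 arrays, and Mgst2, well above background on 5.

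RNA came from whole livers of untreated BALB/c mice, with 3 arrays in each of 4 groups: interleukin-18 knockout at 6 weeks, wild type at 6 weeks, knockout at 12 weeks and wild type at 12 weeks. Interleukin-18 is a cytokine of the interleukin-1 family. The arrays of a group are named as biological replicates, 1 array for each liver sample. How the knockout was made, whether the wild type animals were littermates, the sex and the hour of killing are not given in the labels. Levels below are log2 of the processed signal minus the 75th percentile of the same array, so that a level of 0 is the signal at that percentile. Differences are on the same log2 scale with the standard error (SE) of a limma model over all 12 arrays, and the adjusted p is that of Benjamini and Hochberg over 22128 genes, with a threshold of 0.05.

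Glutathione transferases join the tripeptide glutathione to electrophiles, among them products of cytochrome P450 enzymes and of lipid peroxidation, and glucuronosyltransferases join glucuronic acid to bilirubin, steroids, bile acids and drugs. Both make their substrates more soluble and ready for export into bile and blood. The cytosolic transferases fall into classes named alpha, mu, pi, theta, omega and zeta. The kappa class, of mitochondria and peroxisomes, and the microsomal transferases (Mgst) are separate families. Many of the cytosolic classes sit in the genome as arrays of close copies. In mouse liver many of these genes are inducible through the receptors CAR, PXR and AhR and the oxidative stress factor NRF2, and several are known to differ between the sexes.

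Interleukin-18 transcript (Il18) fell by 2.54 ± 0.11 at 6 weeks in the knockout and fell by 2.34 ± 0.11 at 12 weeks on the log2 scale (SE; adjusted p = 2.47e-06 and 1.10e-05). The Il18 probe stayed well above background on every knockout array, with mean levels of -0.14 at 6 weeks and -0.04 at 12 weeks. Hepatocyte markers stood at a summed level of 2801 to 3339 times the 75th percentile in the 6-week knockout and 3155 to 3312 in the 6-week wild type, and 0 of 5 passed limma's test at 6 weeks (1 at an unadjusted p under 0.05). The arrays lay on 2 slides. Slide 1 held the 6-week wild type arrays and replicate 1 of the 12-week wild type, and slide 2 held all knockout arrays and the other 2 arrays of the 12-week wild type. At 6 weeks slide and genotype thus cannot be told apart within a slide, and a model with the slide as a fixed block takes its slide term from replicate 1 of the 12-week wild type. In the wild type age and slide go together too, but for that 1 array. Other gene sets moved with genotype at 6 weeks. Male-biased liver genes were higher in 13 of 13 tested (summed level 2803 to 3197 in the knockout and 1647 to 1880 in the wild type), and female-biased ones were lower in 9 of 11 (179 to 244 in the knockout and 676 to 842 in the wild type), with Cyp2b13 and Cyp2b9 not well above background in the knockout. Clock genes were higher in 4 and lower in 11 of 19 (76.8 to 83.0 in the knockout and 266 to 310 in the wild type). Erythroid markers summed to 115 to 182 in the knockout and 64.7 to 78.9 in the wild type. The part of these genes in the results below was not tested. Ddx3y, a Y-linked gene, was well above background in all groups, with group means of 2.20 to 2.45. Of 3 tested sex chromosome genes, 0 passed limma's test at 6 weeks and 2 were lower at an unadjusted p under 0.05, with a median of -0.50. Their summed level was 9.97 to 16.9 in the 6-week knockout and 14.2 to 15.5 in the 6-week wild type.

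Of the 36 member genes tested, 2 rose and 10 fell in the 6-week knockout, which is 33.3% against 21.1% of all genes tested. By direction, 11.7% of all genes rose and 9.35% fell. The 10 that fell were all 3 tested theta-class genes (Gstt1, Gstt2, Gstt3), the alpha-class genes Gsta1, Gsta2 and Gsta4, the microsomal Mgst3, the omega-class Gsto1, and both genes of the Ugt3 family. The 2 that rose were Gstp1, of the pi class, and Ugt2b1. The median difference of the members was -0.04, beside 0.02 over all genes, and the range ran from -2.0 to 1.39. Knockout and wild type arrays did not overlap for 21 of the 36 members, against 47.9% of all genes. As these are bulk livers, fewer cells of a type and less RNA per cell cannot be told apart. With the slide as a fixed block 5 of the 36 members passed, against 2.66% of all genes. They were Gstt2, Gstt3, Gsto1, Mgst3 and Ugt2b1, all among the 12 above.

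**Figure D1:**
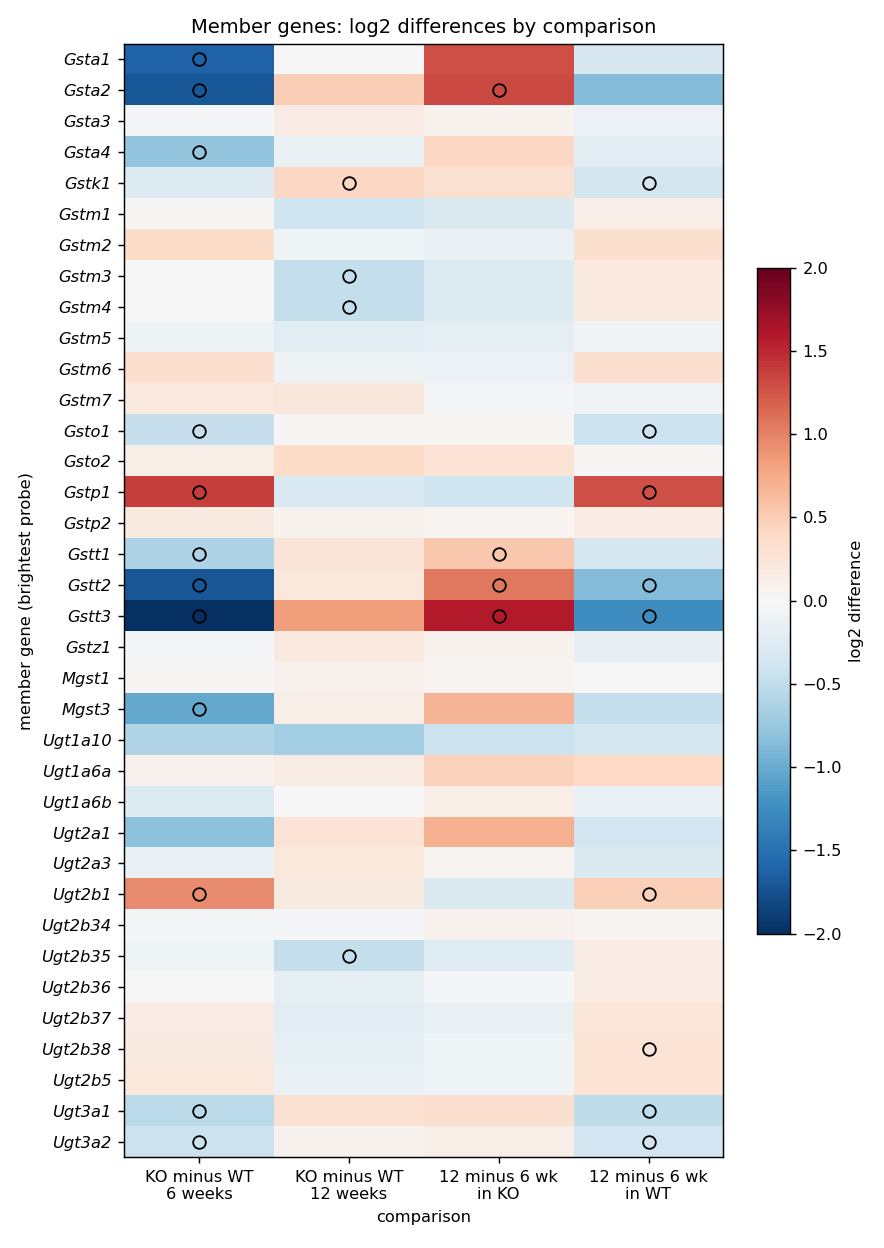
Log2 differences of the 36 tested member genes (rows) in 4 comparisons (columns), coloured from -2 (blue, lower) to 2 (red, higher); circles mark an adjusted p under 0.05. In the first column 10 circled genes are blue and 2, Gstp1 and Ugt2b1, are red.

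Gstt3 and Gstt2, of the theta class, fell most among the members. Theta transferases handle small halogenated and sulfate-carrying molecules, and their genes lie within 58.3 kb of chromosome 10 (probes at chr10:75236966-75295265, minus strand, mm9). Gstt3 had levels of 3.70, 4.09 and 3.40 in the 6-week knockout, against 5.92, 5.71 and 5.56 in the 6-week wild type. Gstt2 had 3.13, 3.27 and 3.01 in the 6-week knockout, against 4.75, 4.79 and 5.0 in the 6-week wild type. Gstt1 had 7.23, 7.34 and 7.14 in the 6-week knockout, against 7.82, 7.83 and 7.91 in the 6-week wild type. For each of the 3 genes the knockout arrays were all below the wild type arrays. Gstt3 fell 3.99-fold (-2.0 ± 0.23, adjusted p = 0.000538) and Gstt2 fell 3.28-fold (-1.71 ± 0.16, adjusted p = 0.000164). Gstt1 fell 1.53-fold (-0.62 ± 0.10, adjusted p = 0.00363). The alternative settings counted here were quantile normalization, normexp background correction, the mean of the probes, the slide as a fixed or random block, the replicate block and leaving out each of the 12 arrays, 18 in all (19 at 12 weeks, with a fit within slide 2). Over these 18 settings the adjusted p stayed between 0.000151 and 0.027 for Gstt3 and between 3.53e-05 and 0.0131 for Gstt2. For Gstt1 it ran from 0.000736 to 0.0588, the last with the slide as a fixed block (-0.78).

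At 12 weeks the theta genes took another order. Gstt3 had 5.21, 5.59 and 5.17 in the 12-week knockout, against 4.26, 4.22 and 4.99 in the 12-week wild type. The groups did not overlap, and the difference missed the threshold (0.84 ± 0.23, adjusted p = 0.0537). It was 1.09 (adjusted p = 0.016) without replicate 3 of the 12-week wild type, which was the highest array of its group, and over 19 alternative settings the adjusted p ran from 0.016 to 0.196. Gstt2 had 4.11, 4.46 and 4.02 in the 12-week knockout, against 3.83, 3.80 and 4.31 in the 12-week wild type. Gstt1 had 7.79, 7.81 and 7.73 in the 12-week knockout, against 7.42, 7.39 and 7.76 in the 12-week wild type. Both overlapped between the genotypes, through replicate 3 of the wild type. The difference was 0.22 ± 0.16 for Gstt2 (adjusted p = 0.438), with 0.08 to 0.39 in leave-one-out fits, and 0.25 ± 0.10 for Gstt1 (adjusted p = 0.163). Without that wild type array Gstt1 passed (0.37, adjusted p = 0.0261), in a range over 19 settings of 0.0261 to 0.399. With age the genotypes moved in opposite directions: Gstt3 was higher by 1.59 ± 0.23 (adjusted p = 0.00418) at 12 than at 6 weeks in the knockout and lower by 1.24 ± 0.23 (adjusted p = 0.0112) in the wild type. For Gstt2 the age differences were 1.06 ± 0.16 in the knockout and -0.87 ± 0.16 in the wild type (adjusted p = 0.00482 and 0.0105). For Gstt1 they were 0.54 ± 0.10 in the knockout (adjusted p = 0.0142; 0.0549 without replicate 3 of the 6-week knockout and 0.0584 without replicate 2 of the 12-week knockout) and -0.33 ± 0.10 in the wild type (adjusted p = 0.0784). With the slide as a fixed block the limma adjusted p of the wild type age difference was 0.0483 for Gstt3 and 0.0461 for Gstt2. The genotype difference itself differed between ages, by 2.83 ± 0.33 for Gstt3, 1.93 ± 0.23 for Gstt2 and 0.87 ± 0.15 for Gstt1 (adjusted p = 0.000971, 0.00098 and 0.0056).

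Alpha-class transferases reduce lipid hydroperoxides, and Gsta4 is known for conjugating 4-hydroxynonenal, a lipid peroxidation product. Gsta1, Gsta2 and Gsta4 lie within 132.7 kb of chromosome 9 (chr9:78046172-78178915, mm9). This is the chromosome of Il18, with 27.7 Mb between the Il18 probe and that of Gsta1. Gsta3 lies on chromosome 1. The probes of Gsta1 (chr9:78090411-78090470, plus strand) and Gsta2 (chr9:78178856-78178915, minus strand) share a stretch of 50 bases with 4 mismatches (92.0% identical), so that cross-hybridisation between the 2 transcripts is possible and their levels are uncertain as separate values. The stretches below, 30 bases of each probe, show the likeness; capitals mark bases at which they differ.
Gsta1: GgtttgcaattataaaaAGcaattgttgat
Gsta2: TgtttgcaattataaaaTAcaattgttgat

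Gsta2 had levels of 4.35, 4.96 and 4.34 in the 6-week knockout, against 6.49, 6.20 and 6.06 in the 6-week wild type. Gsta1 had 2.04, 2.72 and 2.22 in the 6-week knockout, against 4.39, 3.59 and 3.84 in the 6-week wild type. Gsta4 had 1.73, 1.88 and 1.55 in the 6-week knockout, against 2.64, 2.40 and 2.48 in the 6-week wild type. All 3 genes were lower on every knockout array. Gsta2 fell 3.25-fold (-1.70 ± 0.30, adjusted p = 0.00442), Gsta1 fell 3.06-fold (-1.61 ± 0.40, adjusted p = 0.0192) and Gsta4 fell 1.73-fold (-0.79 ± 0.13, adjusted p = 0.0035). With the slide as a fixed block the differences were larger in size and did not pass: -2.18 for Gsta2, -2.64 for Gsta1 and -0.90 for Gsta4 (adjusted p = 0.0692, 0.0663 and 0.0896, the highest of 18 settings for each). The lowest of those settings were 0.000811, 0.00751 and 0.0013. The Gsta1 call was also lost without replicate 1 of the 6-week wild type (adjusted p = 0.0643) and without replicate 1 or 3 of the 6-week knockout (adjusted p = 0.063 and 0.0539). Gsta3, whose 2 probes gave -0.02 and -0.05, differed by less than its SE at 6 weeks (-0.02 ± 0.11).

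At 12 weeks none of the 4 alpha genes passed the test in the genotype comparison. Gsta2 had 5.63, 6.19 and 5.81 in the 12-week knockout, against 5.07, 4.97 and 6.12 in the 12-week wild type, and the groups overlapped through replicate 3 of the wild type. The difference was 0.49 ± 0.30 (adjusted p = 0.348), and without that array 0.85 (adjusted p = 0.0459), in a range over 19 settings of 0.0459 to 0.643. Gsta1 differed by -0.0017 ± 0.40 and Gsta4 by -0.14 ± 0.13. With age Gsta2 rose in the knockout (1.33 ± 0.30, adjusted p = 0.028), a call lost in 4 of 12 leave-one-out fits, with values of 1.17 to 1.53. The genotype difference of Gsta2 differed between ages by 2.19 ± 0.42 (adjusted p = 0.0103), that of Gsta4 by 0.65 ± 0.19 (adjusted p = 0.0527) and that of Gsta1 by 1.61 ± 0.56 (adjusted p = 0.0989).

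**Figure D2:**
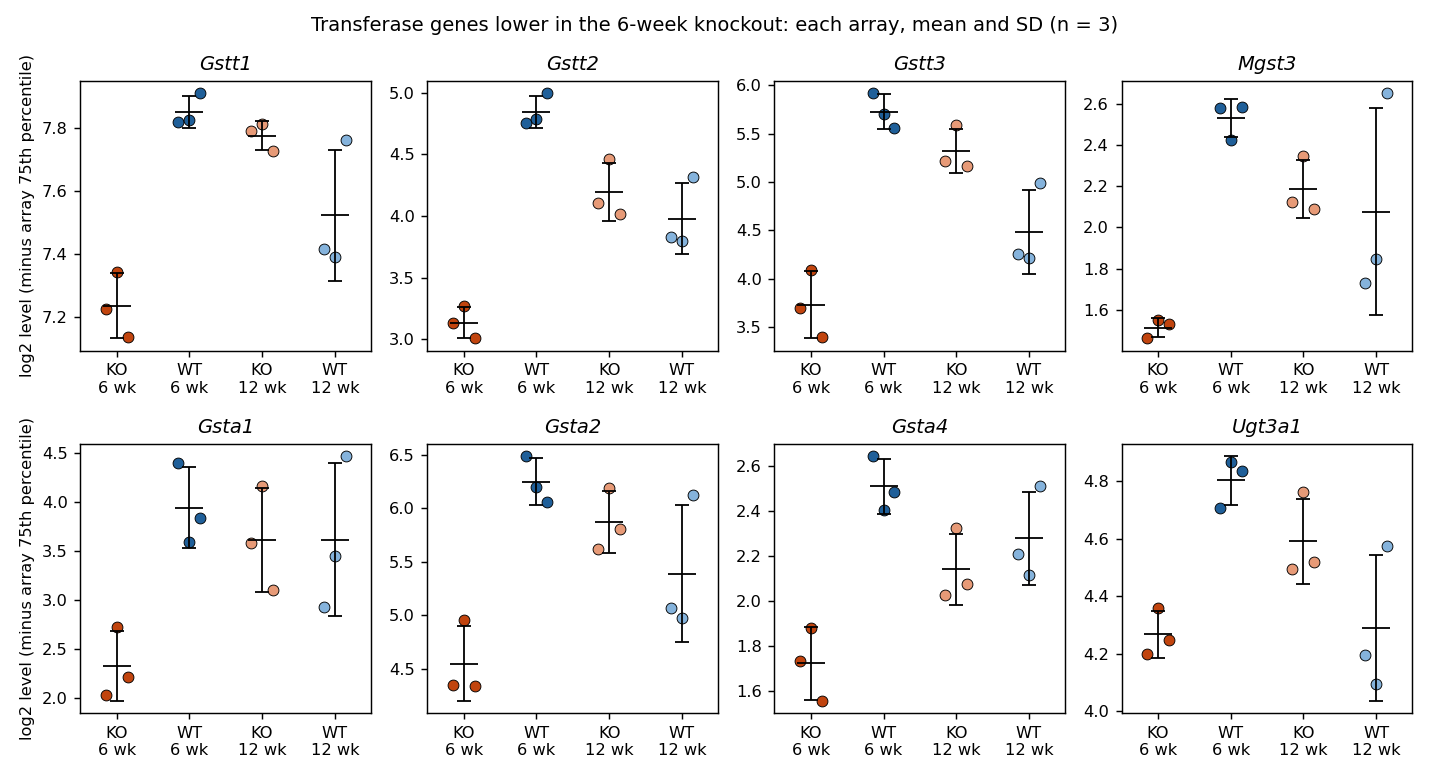
Log2 levels (array signal minus its 75th percentile) of 8 member genes on every array, by group, with mean and SD (n = 3). In each panel the 3 knockout arrays of 6 weeks lie below the 3 wild type arrays of 6 weeks, and the 12-week groups lie closer together.

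For the 10 genes that fell at 6 weeks the highest array of a group was often the same one. Replicate 3 was the highest of the 12-week wild type arrays for 10 of the 10, against 36.1% of all genes, and replicate 2 was the highest of the 12-week knockout arrays for 10 of the 10, against 24.5%. In the 6-week knockout replicate 2 was the highest for 9 of the 10, against 30.1%. No such array stood out in the 6-week wild type, where replicates 1 and 3 were highest for 4 and 5 genes.

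Mgst3, a microsomal enzyme with glutathione transferase and peroxidase activity, was measured with 2 probes on chromosome 1. Its brighter probe (chr1:169303928-169303987, minus strand, mm9) gave 1.46, 1.55 and 1.53 in the 6-week knockout, against 2.58, 2.43 and 2.59 in the 6-week wild type. The groups were separate, and the gene fell 2.02-fold (-1.02 ± 0.20, adjusted p = 0.00734). The second probe gave -1.21 ± 0.20 and passed too. With the slide as a fixed block the difference was -1.53 (adjusted p = 0.0408), the highest of 18 settings, which began at 0.000176. At 12 weeks Mgst3 gave 2.12, 2.35 and 2.09 in the knockout, against 1.73, 1.85 and 2.65 in the wild type. Replicate 3 of the wild type was the highest of all 12 arrays, and the genotype difference was 0.11 ± 0.20 with that array and 0.40 (adjusted p = 0.0395) without it. Its sign turned in 4 of 19 settings. Mgst1, the abundant microsomal transferase of hepatocytes, differed by 0.03 ± 0.07 at 6 weeks and 0.09 ± 0.07 at 12 weeks.

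Gsto1, which encodes an omega-class enzyme with thioltransferase and dehydroascorbate reductase activity, had 6.62, 6.69 and 6.67 in the 6-week knockout, against 7.08, 7.09 and 7.18 in the 6-week wild type. The arrays of each group lay close together, and the gene fell 1.37-fold (-0.45 ± 0.07, adjusted p = 0.00214). The call held in 18 of 18 settings (adjusted p = 0.000456 to 0.0428). Both groups of 12 weeks stood near the 6-week knockout (6.65, 6.75 and 6.70 in the knockout, against 6.62, 6.66 and 6.76 in the wild type). Gsto1 thus fell with age in the wild type (-0.44 ± 0.07, adjusted p = 0.00534) and differed by 0.03 ± 0.07 with age in the knockout. Gsto2 was dim, with well above background signal on 9 of 12 arrays, and differed by 0.12 ± 0.47 at 6 weeks. Gstz1, the zeta-class enzyme of tyrosine breakdown, differed by -0.04 ± 0.08 at 6 weeks.

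The pi class was measured with 4 probes within 5.1 kb of chromosome 19 (mm9, minus strand), and they did not behave alike. Gstp1 and Gstp2 are neighbouring close copies that encode the pi-class enzymes, and Gstp1 is known as male-biased in mouse liver. The probe sequences were compared with each other and not with the transcripts, so which transcript each probe reads was not tested. The Gstp1 probe spans an intron (chr19:4035908-4036723) and shares 35 bases with the inner Gstp2 probe (chr19:4040983-4041042), with 5 mismatches (85.7% identical), here in capitals. The end probe of Gstp2 (chr19:4040283-4040342) reaches the polyadenylation signal AATAAA, in capitals in its last 30 bases. It shares no such stretch with another member probe.
Gstp1 probe: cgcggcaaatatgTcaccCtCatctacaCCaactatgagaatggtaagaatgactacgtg
Gstp2 inner probe: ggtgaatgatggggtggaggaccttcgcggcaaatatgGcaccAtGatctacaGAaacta
Gstp2 end probe, last 30 bases: cagcactAATAAAgtttgtaagacaaaaaa

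Gstp1 had levels of 8.61, 8.75 and 8.90 in the 6-week knockout, against 7.85, 7.33 and 6.91 in the 6-week wild type. The knockout arrays lay together above all wild type arrays, which were spread over nearly a full log2 unit. Gstp1 rose 2.62-fold in the knockout (1.39 ± 0.20, adjusted p = 0.00178). Over 18 settings the adjusted p ran from 0.000517 to 0.0788, the last with the slide as a fixed block (1.48). At 12 weeks Gstp1 had 8.43, 8.31 and 8.32 in the knockout, against 8.72, 8.83 and 8.43 in the wild type. These groups differed by -0.30 ± 0.20 (adjusted p = 0.39). Gstp1 rose with age in the wild type (1.29 ± 0.20, adjusted p = 0.00532; the fixed slide block gave 0.0461), and its genotype difference changed between ages by -1.69 ± 0.29 (adjusted p = 0.00567).

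A second probe (chr19:4037306-4037365), which matches accessions of both Gstp1 and Gstp2, gave 1.69 ± 0.23 at 6 weeks, and the inner Gstp2 probe gave 1.49 ± 0.21, both past the threshold in the fit of all probes. The end probe of Gstp2, the brightest of that gene and so the one used for it, gave 0.18 ± 0.13 (adjusted p = 0.346). On that probe the 6-week knockout had 9.37, 9.42 and 9.59 and the 6-week wild type 9.49, 9.31 and 9.05, which overlap. The mean of both Gstp2 probes differed by 0.84 (adjusted p = 0.00781). The direction for Gstp2 itself in the 6-week knockout is uncertain, since its inner probe shares sequence with the Gstp1 probe. Gstp3, a further copy outside the rule, was higher in the knockout at both ages (0.39 ± 0.10 at 6 weeks and 0.55 ± 0.10 at 12 weeks, adjusted p = 0.0248 and 0.0124).

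**Figure D3:**
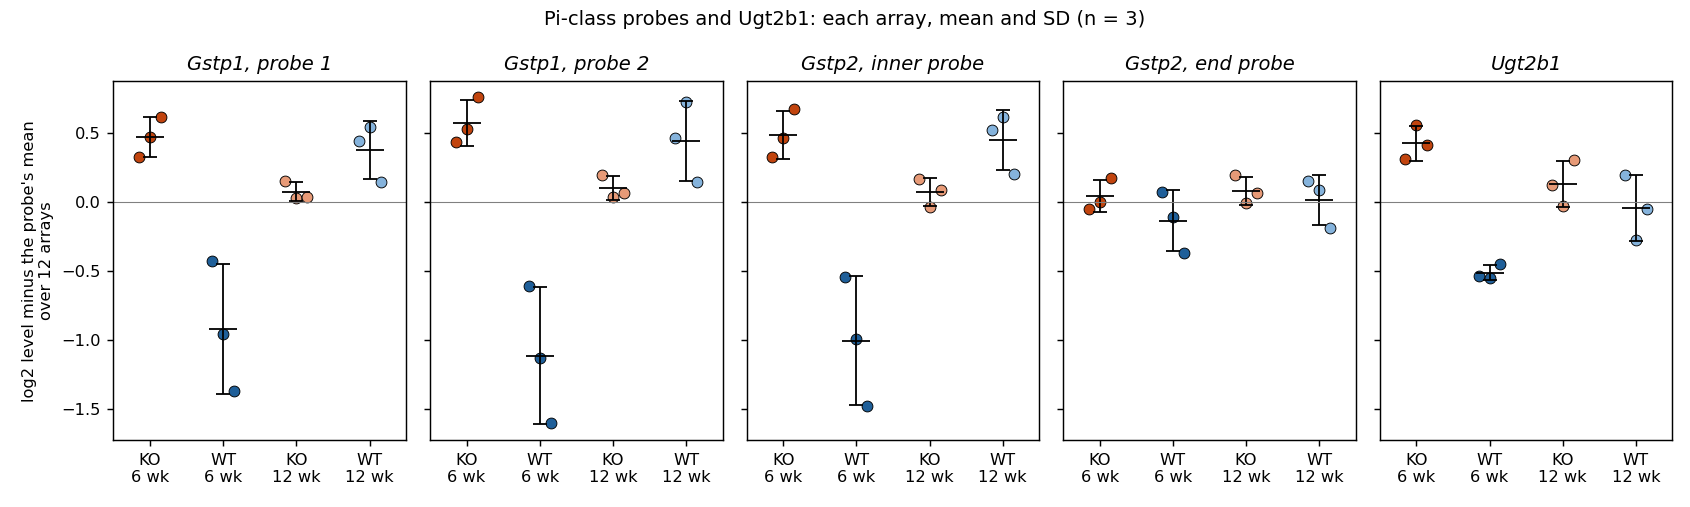
Log2 level minus the same probe's mean over 12 arrays, for the 4 pi-class probes and Ugt2b1, on every array by group, with mean and SD (n = 3). On 4 of the 5 probes the 6-week knockout lies above the 6-week wild type with no overlap, and on the end probe of Gstp2 these groups overlap.

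The 7 mu-class genes lie within 145.7 kb of chromosome 3 (14 probes, chr3:107701101-107846847, mm9). Gstm1 is the main mu-class enzyme of mouse liver. Its brightest probe is placed by the files on chromosome 5 (chr5:117082490-117082549, minus strand) although it names a Gstm1 accession, and the other Gstm1 probe lies in the cluster. At 6 weeks none of the 7 passed the test as measured by its brightest probe. At 12 weeks Gstm3 and Gstm4 fell, and these 2 are 2 of only 4 member genes called at that age: 1 rose and 3 fell, 11.1% against 8.21% of all genes. The median of the members was 0.04 at 12 weeks and 0.01 over all genes. Knockout and wild type did not overlap for 13 members, against 27.4% of all genes.

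Gstm3 had levels of 5.09, 5.02 and 4.92 in the 12-week knockout, against 5.32, 5.55 and 5.58 in the 12-week wild type. Gstm4 had 3.91, 3.84 and 3.75 in the 12-week knockout, against 4.24, 4.36 and 4.31 in the 12-week wild type. Gstm1 had 8.04, 8.01 and 7.91 in the 12-week knockout, against 8.18, 8.49 and 8.48 in the 12-week wild type. For these 3 neighbours the knockout arrays were all below the wild type arrays. The differences were -0.47 ± 0.13 for Gstm3 (adjusted p = 0.0483), -0.47 ± 0.12 for Gstm4 (adjusted p = 0.0424) and -0.40 ± 0.11 for Gstm1 (adjusted p = 0.0607). Each of the first 2 calls lay close to the threshold and was lost in 9 of 12 leave-one-out fits, with values of -0.56 to -0.42 for Gstm3 and -0.51 to -0.43 for Gstm4. Within slide 2 alone the differences were -0.56, -0.50 and -0.50 for Gstm3, Gstm4 and Gstm1, all past the threshold (adjusted p = 0.0352, 0.0462 and 0.0298). At 12 weeks clock genes were higher in 9 and lower in 0 of 19 by limma, with 2 lower at an unadjusted p under 0.05 (summed level 259.8 to 287.4 in the knockout and 113.3 to 195.9 in the wild type), and of 6 Kupffer cell and macrophage markers Timd4 fell (-0.81 ± 0.22, adjusted p = 0.04996), with a summed level of 32.45 to 54.5 in the knockout and 49.51 to 62.83 in the wild type. The part of these genes in the differences of the mu class was not tested. Over 19 settings the adjusted p of the mu genes ran from 0.0133 to 0.147 for Gstm3, 0.015 to 0.13 for Gstm4 and 0.0298 to 0.174 for Gstm1.

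The second Gstm3 probe (chr3:107766615-107766674), at the end of the transcript, gave -1.19 ± 0.22 at 12 weeks (adjusted p = 0.012 in the fit of all probes), a larger difference than the junction-spanning probe used for the gene. It overlaps the brightest Gstm1 probe by 27 bases with 2 mismatches, shown here because the pair of probes gave unequal differences; capitals mark the mismatches.
Gstm1: tcatCtacaataaagTctgaaacacac
Gstm3: tcatGtacaataaagCctgaaacacac

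The second probe of Gstm4 gave -0.32 ± 0.11 (adjusted p = 0.0917) and that of Gstm1 -0.40 ± 0.13 (adjusted p = 0.093). Gstm5 (-0.23 ± 0.09), Gstm2 (-0.09 ± 0.14) and Gstm6 (-0.11 ± 0.12) did not pass at 12 weeks, and Gstm7 stood at 0.23 ± 0.11. At 6 weeks the 3 probes of Gstm6 gave 0.33, 0.36 and 0.40, of which the 2 dimmer ones passed (adjusted p = 0.027 and 0.0179) and the brightest, used for the gene, did not (adjusted p = 0.0834). Gstm6 stood at 6.01, 6.05 and 5.91 in the 6-week knockout, against 5.65, 5.72 and 5.62 in the 6-week wild type, without overlap. With the slide as a fixed block its adjusted p was 0.961.

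**Figure D4:**
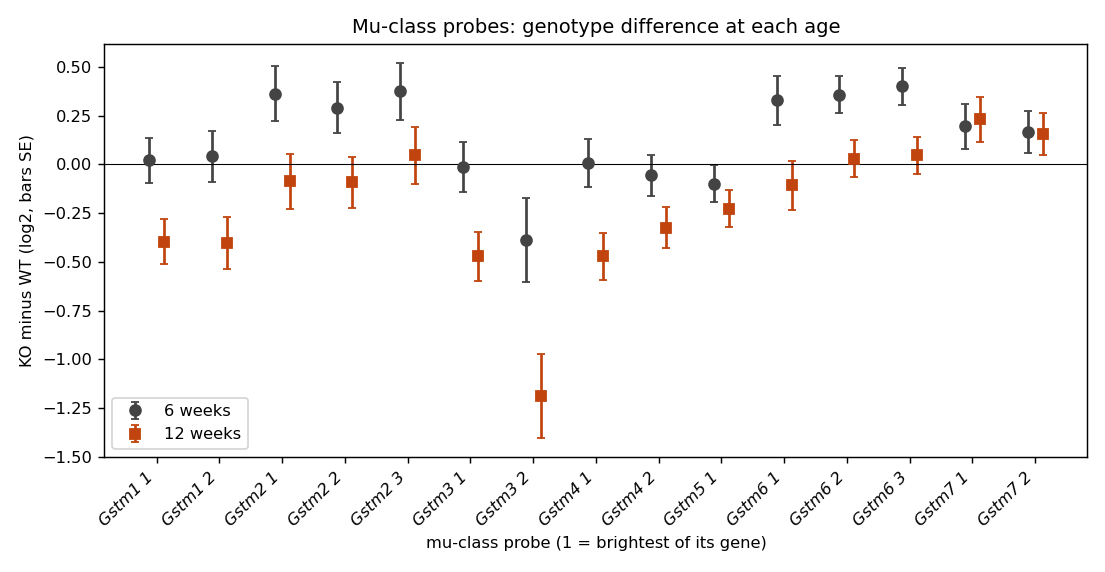
Knockout minus wild type (log2) with SE for each mu-class probe, at 6 weeks (circles) and 12 weeks (squares), ordered by gene and by brightness within a gene. Both probes of Gstm1, Gstm3 and Gstm4 lie below 0 at 12 weeks, and the second Gstm3 probe lies lowest, at -1.19.

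The other glutathione transferase called at 12 weeks was Gstk1, which encodes the kappa-class enzyme of mitochondria and peroxisomes (chr6:42200381-42200440, plus strand, mm9). Gstk1 had 6.52, 6.45 and 6.51 in the 12-week knockout, against 5.98, 6.08 and 6.20 in the 12-week wild type. The groups were apart, and Gstk1 rose 1.33-fold (0.41 ± 0.09, adjusted p = 0.0209). The call was lost in 6 of 19 settings, at adjusted p of up to 0.102 within slide 2, where the difference was 0.36. In the 6-week groups Gstk1 had 6.05, 6.32 and 6.21 in the knockout, against 6.41, 6.48 and 6.47 in the wild type. At 6 weeks the difference was of the other sign and did not pass (-0.26 ± 0.09, adjusted p = 0.0578), and the change between ages was 0.67 ± 0.12 (adjusted p = 0.00814). Gstk1 fell with age in the wild type (-0.37 ± 0.09, adjusted p = 0.0285), a call lost in 4 of 12 leave-one-out fits and with the slide as a fixed block (-0.47, adjusted p = 0.0585).

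Among the glucuronosyltransferases, each read by its brightest probe, Ugt2b1 gave the largest genotype difference of 6 weeks. Its enzyme glucuronidates steroids, bile acids and drugs, and its probe lies on chromosome 5 (chr5:87346310-87346369, minus strand, mm9) in a cluster of 9 tested Ugt2 genes that spans 570.0 kb. Ugt2b1 had 5.86, 6.11 and 5.96 in the 6-week knockout, against 5.02, 5.0 and 5.10 in the 6-week wild type. The groups were well apart, and Ugt2b1 rose 1.92-fold (0.94 ± 0.13, adjusted p = 0.0013). The call held in 18 of 18 settings (adjusted p = 0.000698 to 0.0131), and with the slide as a fixed block the difference was 1.30. At 12 weeks Ugt2b1 had 5.67, 5.53 and 5.86 in the knockout, against 5.75, 5.27 and 5.50 in the wild type, with overlap (0.18 ± 0.13, adjusted p = 0.436). Its age difference in the wild type lay at the threshold (0.47 ± 0.13, adjusted p = 0.0489) and was lost in 11 of 12 leave-one-out fits.

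The other Ugt2b genes differed by between -0.09 for Ugt2b35 and 0.21 for Ugt2b5 at 6 weeks, and none passed. Ugt2b5 (0.21 ± 0.08), Ugt2b38 (0.18 ± 0.07) and Ugt2b37 (0.14 ± 0.07) were higher on every 6-week knockout array than on every 6-week wild type array. Their adjusted p values were 0.0913, 0.102 and 0.174. Ugt2b34, Ugt2b35 and Ugt2b36 overlapped between the genotypes at 6 weeks. At 12 weeks Ugt2b35 (chr5:87441721-87441780, plus strand) had 4.15, 4.15 and 4.04 in the knockout, against 4.54, 4.60 and 4.65 in the wild type. The groups were separate, and Ugt2b35 fell 1.40-fold (-0.48 ± 0.09, adjusted p = 0.0113). Its second probe gave -0.52 ± 0.10 and passed too. The call was lost within slide 2 (-0.51, adjusted p = 0.0561) and without replicate 3 of the 12-week knockout (-0.45, adjusted p = 0.0507), in a range over 19 settings of 0.00315 to 0.0561. Ugt2b37 (-0.22 ± 0.07), Ugt2b36 (-0.20 ± 0.08), Ugt2b38 (-0.19 ± 0.07) and Ugt2b5 (-0.14 ± 0.08) were lower on every 12-week knockout array than on every 12-week wild type array, and none passed (adjusted p = 0.0845 to 0.341). These close copies share probe sequence: the Ugt2b37 and Ugt2b5 probes overlap by 55 bases with 9 mismatches (83.6% identical), and the Ugt2b36 probe names accessions of Ugt2b37 too. Their values are thus uncertain as separate measurements. Ugt2b38 had 8.58, 8.66 and 8.66 in the 12-week wild type, against 8.40, 8.39 and 8.29 in the 6-week wild type. These groups did not overlap, and Ugt2b38 rose with age in the wild type (0.27 ± 0.07, adjusted p = 0.0419), a call lost in 10 of 12 leave-one-out fits and in 14 of 18 settings. In the knockout it had 8.46, 8.44 and 8.45 at 12 weeks, against 8.53, 8.45 and 8.64 at 6 weeks. Ugt2a1 was dim (-0.83 ± 0.38 at 6 weeks, adjusted p = 0.139), and Ugt2a3 differed by -0.13 ± 0.12.

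The Ugt1 family is read from a single complex locus, in which alternative first exons are spliced to shared last exons. RefSeq lists 9 Ugt1a genes, of which 7 end at the same base. The probe named Ugt1a6a and the brightest one named Ugt1a6b each match accessions of 4 Ugt1a genes, so that neither can be assigned to 1 gene. Their levels were far apart, with means of -2.95 for Ugt1a6a and 8.42 for Ugt1a6b in the 6-week knockout. The cause was not tested, and what the dim Ugt1a6a probe reports is uncertain. The Ugt1a6b probe in the shared end (chr1:90115493-90115552, plus strand, mm9) had 8.37, 8.46 and 8.44 in the 6-week knockout, against 8.77, 8.64 and 8.70 in the 6-week wild type. It was lower on every knockout array and missed the threshold (-0.28 ± 0.09, adjusted p = 0.0535), while the probe in the first exon of Ugt1a6b gave 0.23 ± 0.11 (adjusted p = 0.142). The probe of Ugt1a10, which also names Ugt1a9, gave -0.59 ± 0.20 at 6 weeks (adjusted p = 0.0581) and -0.68 ± 0.20 at 12 weeks (adjusted p = 0.064). It had 0.49, 0.13 and -0.01 in the 12-week knockout, against 0.72, 0.73 and 1.18 in the 12-week wild type. A dim second probe next to it passed at 6 weeks (-0.99 ± 0.17, adjusted p = 0.0037) and gave -0.12 ± 0.17 at 12 weeks.

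The Ugt3 family uses other sugars than glucuronic acid; Ugt3a1 is known to transfer N-acetylglucosamine to bile acids in human. Its 2 genes lie within 55.6 kb of chromosome 15. Ugt3a1 (chr15:9244664-9244723, plus strand, mm9) had 4.20, 4.36 and 4.25 in the 6-week knockout, against 4.71, 4.87 and 4.84 in the 6-week wild type. Ugt3a2 (chr15:9300203-9300262, plus strand) had 6.29, 6.34 and 6.48 in the 6-week knockout, against 6.72, 6.81 and 6.87 in the 6-week wild type. Both were lower on every knockout array, by 0.54 ± 0.13 for Ugt3a1 (adjusted p = 0.0167) and 0.43 ± 0.09 for Ugt3a2 (adjusted p = 0.00789). With the slide as a fixed block they were -0.67 and -0.53 (adjusted p = 0.163 and 0.0998, the highest of 18 settings, which began at 0.00209 and 0.00127). The Ugt3a1 call was also lost with the slide as a random block (adjusted p = 0.0768) and without replicate 2 or 3 of the 6-week wild type or replicate 1 of the 6-week knockout. At 12 weeks the genotype difference was above 0 and did not pass. Ugt3a1 had 4.49, 4.76 and 4.52 in the 12-week knockout, against 4.20, 4.09 and 4.58 in the 12-week wild type (0.30 ± 0.13, adjusted p = 0.171). It passed without replicate 3 of the 12-week wild type (0.45, adjusted p = 0.0319), in a range over 19 settings of 0.0319 to 0.406. Ugt3a2 had 6.47, 6.56 and 6.44 in the 12-week knockout, against 6.36, 6.36 and 6.55 in the 12-week wild type, with overlap (0.07 ± 0.09, adjusted p = 0.674), and its sign turned in 2 of 19 settings. The wild type was lower at 12 than at 6 weeks for both genes (-0.52 ± 0.13 for Ugt3a1 and -0.38 ± 0.09 for Ugt3a2, adjusted p = 0.0336 and 0.0245), calls lost in 5 and 3 of 12 leave-one-out fits.

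Between 12 and 6 weeks 3 members rose and 6 fell in the wild type (25% of members, against 9.03% of all genes, 4.61% higher and 4.43% lower). In the knockout 4 rose and 0 fell (11.1%, against 6.91% of all genes, 3.98% higher and 2.93% lower). In the knockout 9 members were higher and 4 lower at an unadjusted p under 0.05 in the same limma fit. The groups did not overlap for 18 and 19 members, against 26% and 31.9% of all genes. These comparisons share the arrays of a group with the genotype comparisons. The genotype difference changed between ages for 13 members (36.1%, against 10.3% of all genes), 9 with a higher and 4 with a lower difference at 12 weeks, against 5.58% and 4.76% of all genes. Of the 12 members called at 6 weeks, 0 were called at 12 weeks by limma, where 14 members had an unadjusted p under 0.05.

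**Figure D5:**
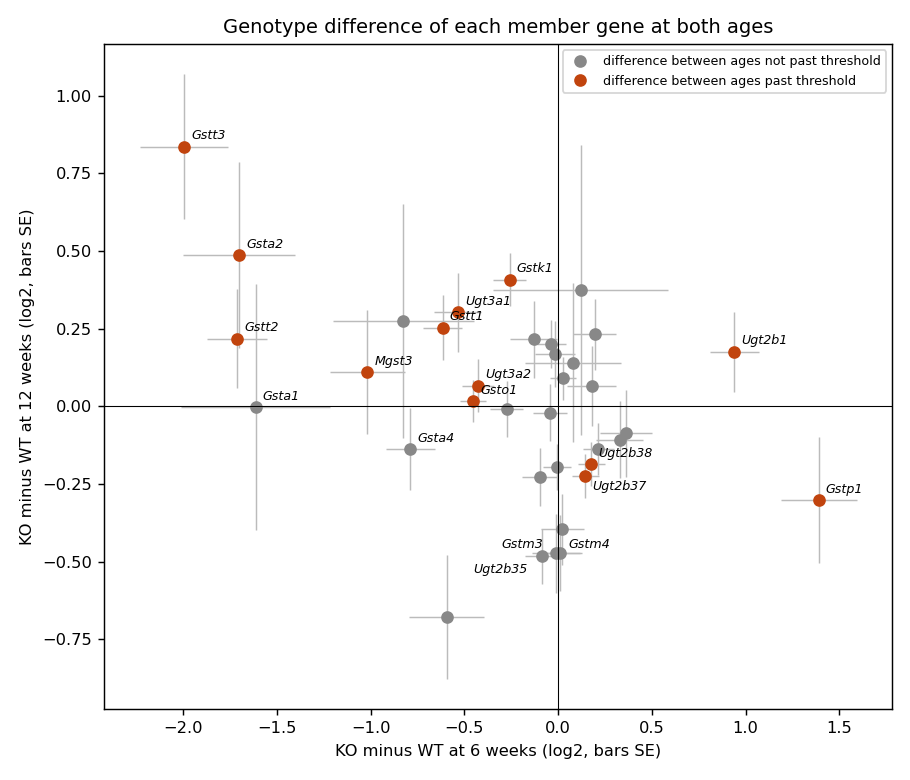
Knockout minus wild type at 6 weeks (x axis) and at 12 weeks (y axis), log2 with SE bars, for each of the 36 member genes; red points passed the test of the difference between ages. Gstt3, Gsta2 and Gstt2 lie far left and above 0, and Gstp1 lies far right and below 0.

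Promoters were read from a RefSeq table (GRCm38.p6) for 34 of the 38 genes, 43 promoters in all, over the 250 bases before each start. Motif letters were searched on both strands. The letters TGANTCA, a loose form of the AP-1 sites TGACTCA and TGAGTCA, were found in 9 of the 43 (20.93%, against 6.75% of 32851 promoters). In Ugt1a6a, Ugt2b1, Ugt2b35 and Ugt2b38 the match was TGATTCA or TGAATCA, outside those 2 forms. The 43 promoters include close copies and several starts of the same gene, so they are not independent. The D-box TTATGNAA, bound by the clock-controlled factors DBP, TEF and HLF, was found in 3 (6.98%, against 3.07%). The antioxidant response element core TGACNNNGC, through which NRF2 acts, was in 4 (9.3%, against 10.16%), and the xenobiotic response core GCGTG, through which AhR acts, in 6 (13.95%, against 28.16%). The E-box CACGTG was in 0 of 43, against 6.02% of all. STAT5 letters TTCNNNGAA were in 3 (6.98%, against 7.02%), and TATAAA in 6 (13.95%, against 12.37%). A match is a description of these letters and not of binding.

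The promoters of Gstp1 (chr19:4037913-4038162) and Gstp2 (chr19:4042222-4042471) are shown because the probes of the pair differed; both lie on the minus strand and are 83.2% identical. Capitals mark the AP-1 letters, which begin at position -74 from the Gstp1 start and -89 from the Gstp2 start.
Gstp1 promoter: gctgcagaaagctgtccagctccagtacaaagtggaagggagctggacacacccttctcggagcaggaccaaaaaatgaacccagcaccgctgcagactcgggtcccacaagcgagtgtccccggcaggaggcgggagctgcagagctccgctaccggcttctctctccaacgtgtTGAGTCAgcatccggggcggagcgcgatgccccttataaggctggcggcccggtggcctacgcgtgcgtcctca
Gstp2 promoter: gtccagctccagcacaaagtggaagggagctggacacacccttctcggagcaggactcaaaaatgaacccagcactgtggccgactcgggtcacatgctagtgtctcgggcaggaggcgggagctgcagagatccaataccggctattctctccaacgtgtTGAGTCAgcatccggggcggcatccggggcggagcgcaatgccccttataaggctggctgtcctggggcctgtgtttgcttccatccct

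The promoters of Gstt1 (chr10:75797732-75797981, minus strand) and Ugt2b1 (chr5:86926504-86926753, minus strand) hold D-box letters, on the strand opposite to the gene, beginning at positions -39 and -59 from the start. They are shown as the promoters with these letters whose genes passed the test at 6 weeks, Gstt1 being lower and Ugt2b1 higher in the knockout. The third promoter with D-box letters was that of Ugt1a10, at position -212, whose gene did not pass. Capitals mark the D-box letters.
Gstt1 promoter: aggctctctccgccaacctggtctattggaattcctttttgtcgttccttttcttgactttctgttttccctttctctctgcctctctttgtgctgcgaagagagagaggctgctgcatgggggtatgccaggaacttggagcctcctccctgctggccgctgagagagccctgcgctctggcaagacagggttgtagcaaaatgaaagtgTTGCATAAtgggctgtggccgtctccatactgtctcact
Ugt2b1 promoter: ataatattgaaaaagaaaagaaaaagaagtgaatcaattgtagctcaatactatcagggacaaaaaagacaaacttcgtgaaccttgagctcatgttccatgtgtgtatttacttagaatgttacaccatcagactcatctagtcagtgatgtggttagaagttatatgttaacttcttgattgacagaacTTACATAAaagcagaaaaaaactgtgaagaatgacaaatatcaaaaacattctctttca

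Genes of the supply and turnover of the cosubstrates were tested as lists beside the members. Of 14 genes of glutathione synthesis and turnover, 1 rose and 1 fell at 6 weeks, with a median of 0.11. Gclc, the catalytic subunit of the rate-limiting enzyme, rose by 0.64 ± 0.10 (adjusted p = 0.00202), and Gclm, its modifier subunit, fell by 0.25 ± 0.07 (adjusted p = 0.0255). At 12 weeks 0 rose by limma's adjusted p (1 at an unadjusted p under 0.05) and 3 fell: Gclc by 0.79 ± 0.10, Gss, glutathione synthetase, by 0.58 ± 0.09 and Gclm by 0.32 ± 0.07 (adjusted p = 0.00239, 0.00665 and 0.0186). Gclc changed between ages by -1.43 ± 0.14 (adjusted p = 0.000337). Of 12 genes listed for UDP-glucuronate supply and turnover, 2 rose and 2 fell at 6 weeks. At 12 weeks 0 passed limma's test (1 higher at an unadjusted p under 0.05). The 2 that rose at 6 weeks were Slc35b1, of the nucleotide sugar transporter family (0.88 ± 0.14), and Gusb, the lysosomal glucuronidase (0.46 ± 0.09). Ugp2, which makes UDP-glucose, fell by 0.70 ± 0.15, and Xylb, xylulokinase, fell by 0.39 ± 0.09.

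Of 18 NRF2 targets, which include Gclc and Gclm, 2 rose and 3 fell at 6 weeks. Nqo1, a quinone reductase, fell by 1.56 ± 0.18 (adjusted p = 0.000472), Cbr1, a carbonyl reductase, fell by 0.43 ± 0.13, and Pgd, of the pentose phosphate pathway, rose by 0.65 ± 0.14. At 12 weeks 0 rose by limma, also at an unadjusted p under 0.05, and 3 fell, with Osgin1 at -1.30 ± 0.34. Of 21 regulators of phase II genes, 1 rose and 7 fell at 6 weeks, and 3 rose and 0 fell at 12 weeks (2 lower at an unadjusted p under 0.05 in limma). Nr1i3, which encodes CAR, fell by 1.08 ± 0.15 (adjusted p = 0.00158) at 6 weeks. Por, the electron donor of the P450 enzymes, fell by 1.28 ± 0.27, Maff by 1.46 ± 0.26, Nr1h4, the bile acid receptor FXR, by 0.62 ± 0.08 and Ppara by 0.61 ± 0.13. Of 12 exporters of conjugates, 1 rose and 2 fell at 6 weeks: Abcg2 rose by 0.80 ± 0.10, Abcb1a fell by 2.12 ± 0.24 and Abcc3 fell by 0.86 ± 0.16. At 12 weeks Abcc5 alone of this list passed (-0.45 ± 0.08). These counts stand against 11.7% of all genes higher and 9.35% lower at 6 weeks, and 5.65% and 2.56% at 12 weeks.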

How the data were processed

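RNA from 12 whole livers was hybridised to 1-colour Agilent arrays, 3 per group. Per the file headers and the submitters' processing notes, the authors used Agilent Feature Extraction 10.7.3.1. The deposited processed signal is an intensity, background-subtracted and detrended within the array, low values being set to a surrogate; arrays were not scaled to each other. The deposited value table holds the same intensity, rounded (largest difference 0.497%).

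Computed here: control and outlier spots were left out, log2 was taken, and the array's 75th percentile (349 to 420 scanner units) was subtracted. A probe was tested if some group had it well above background on each of its 3 arrays (29804 of 55681), and the brightest such probe stood for its gene (22128 genes). Symbols were updated through RefSeq accessions. One limma 3.58.1 model (R 4.3.3) fitted the 4 group means. It recovered large changes planted in simulated data, which held no slide effect. The number of arrays limits the precision. The labels call the replicates biological and say no more, so p-values measure the spread between these samples.

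For each of the genotype and age comparisons the rule for naming genes gave values on every array to up to 8 members per direction that passed without overlap; other members are named where probes or clusters are shared. Members and lists were chosen with earlier results of these data known. Alternatives were another normalization, background correction, dim-probe filter or probe summary, the slide or the replicate number as a block, and leaving out each array. The values of 1 gene of the regulator list are not reported here. Probe positions are on mm9 as in the files, and promoters are RefSeq's on GRCm38.p6.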

Additional observations from a re-analysis of the deposited data

Results flagged for a closer look

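The difference between knockout and wild type differed between the ages for 13 member genes by a test of that difference, the interaction term of the limma model. Values are the genotype difference at 12 weeks minus that at 6 weeks, log2 ± SE, with adjusted p over all genes. A positive value was found for 9 genes. It was 2.83 ± 0.33 for Gstt3 (adjusted p = 0.000971), 2.19 ± 0.42 for Gsta2 (adjusted p = 0.0103), 1.93 ± 0.23 for Gstt2 (adjusted p = 0.00098) and 1.13 ± 0.28 for Mgst3 (adjusted p = 0.0307). It was 0.87 ± 0.15 for Gstt1 (adjusted p = 0.0056), 0.84 ± 0.18 for Ugt3a1 (adjusted p = 0.0161) and 0.67 ± 0.12 for Gstk1 (adjusted p = 0.00814). It was 0.49 ± 0.12 for Ugt3a2 (adjusted p = 0.0278) and 0.47 ± 0.10 for Gsto1 (adjusted p = 0.0135). A negative value was found for Gstp1 (-1.69 ± 0.29, adjusted p = 0.00567), Ugt2b1 (-0.76 ± 0.18, adjusted p = 0.0253), Ugt2b37 (-0.37 ± 0.10, adjusted p = 0.0463) and Ugt2b38 (-0.36 ± 0.10, adjusted p = 0.0479).

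With the slide as a fixed block 11 of these passed, and Ugt2b37 and Ugt2b38 did not. In leave-one-out fits the call was lost in 11 of 12 for Ugt2b37, 10 of 12 for Ugt2b38 and Mgst3, 7 for Ugt3a2 and 6 for Ugt2b1, and in 0 of 12 for the other 8 genes.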

How the results depend on the processing

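No member gene that passed the threshold in a comparison changed sign under any alternative run (Ugt2b37 was read only in the settings that the report counts), and the counts of calls moved as follows, with the share of all genes called under the same setting in brackets. At 12 weeks 4 member genes passed (8.21%), but 10 did with normexp background correction (10.6%), 1 with no filter on dim probes (2.29%) and 2 with the replicate block (6.43%). For age in the knockout 4 passed (6.91%), and 7 with normexp (9.26%). For age in the wild type 9 passed (9.03%), 4 with no filter (3.41%) and 5 with the slide as a fixed block (3.29%). At 6 weeks 12 passed (21.1%), and 5 with that slide block (2.66%). The difference between ages passed for 13 (10.3%), and for 8 with no filter (3.72%). Leaving out 1 array at a time gave 11 to 16 calls at 6 weeks (11.5% to 28% of all genes), 0 to 7 at 12 weeks (3.07% to 9.37%), 4 to 10 for age in the wild type (4.43% to 17.2%), 2 to 6 for age in the knockout (2.84% to 8.29%) and 8 to 14 for the difference between ages (7.06% to 15%). Without replicate 3 of the 12-week wild type 7 members passed at 12 weeks (6 higher; 9.37% of all genes), and without replicate 3 of the 12-week knockout 0 did by limma (10 at an unadjusted p under 0.05), against 3.07% of all genes. The cause was not tested. Replicate numbers are shared between groups but do not pair the samples: same-numbered arrays correlated at -0.086 to 0.18 in their deviations, over 0.1 for 2 of 18 pairs. With the replicate block 13 members passed at 6 weeks (18.4%), 2 at 12 weeks (6.43%), 7 for age in the wild type (7.57%), 3 for age in the knockout (5.92%) and 11 for the difference between ages (9.11%). Signal over background limits Gsto2, Ugt2a1 and Ugt1a6a, which were dim.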

Other observations

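Markers of other cells in the same livers were read beside the members. Erythroid markers were higher in the knockout at both ages by summed level: 115 to 182 times the array's 75th percentile in the 6-week knockout and 64.7 to 78.9 in the 6-week wild type, and 119 to 168 in the 12-week knockout and 73.9 to 105 in the 12-week wild type. Of 4 tested, 3 rose and 1 fell at 6 weeks, with Alas2, the erythroid enzyme of haem synthesis, at 1.46 ± 0.13. Among cholangiocyte markers Sox9 rose by 1.81 ± 0.28 and Cftr fell by 0.99 ± 0.22 at 6 weeks, at a summed level of 2.13 to 2.65 in the knockout and 2.32 to 2.40 in the wild type. At 12 weeks the Kupffer cell marker Timd4 fell by 0.81 ± 0.22, and 3 of the 6 markers of its list were lower at an unadjusted p under 0.05 (Timd4, Clec4f and Marco). Of 5 sinusoidal endothelium markers and of 5 stellate cell and fibroblast markers, 1 each fell at 6 weeks.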
